A study of Homo sapiens with 9 samples.

Results

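The genes described here are 10 genes of the tumour necrosis factor (TNF) pathway that act in signalling, cell survival and adhesion, in KHM-5M thyroid cancer cells exposed to YK-4-279. They are TNF, CD40, TRAF1, TRAF2, BIRC2, BIRC3, CFLAR, TNIP1, TNFAIP2 and ICAM1. They were chosen by name and not by a measured value, but with earlier results of these data known. All 10 were found among the 58735 genes of the deposited table, of which 19951 are protein-coding. KHM-5M is a human thyroid cancer cell line, and YK-4-279 is a small molecule first described as an inhibitor of the binding of the ETS fusion protein EWS-FLI1 to an RNA helicase. Cells received either DMSO (the solvent control) or YK-4-279 at a dose of 0.3 µM or 1 µM. After 24 h their RNA was sequenced, and each of the 3 groups holds 3 samples. Only 1 cell line was used. The study's methods call the replicates biological but describe fewer of them than the labels give, and the labels do not say whether the samples of a group came from separate cultures. The p-values therefore measure the spread between these samples, part of which may be technical.

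TNF is a cytokine that binds 2 receptors on the cell surface. Of these, TNFRSF1A gathers adaptors such as TRADD and TRAF2 and the ubiquitin ligases BIRC2 and BIRC3. The ubiquitin chains that they build switch on the kinases that free NF-κB to enter the nucleus. NF-κB raises genes that keep the cell alive (BIRC3, CFLAR), genes that slow the pathway (TNIP1, TNFAIP3) and genes of adhesion (ICAM1). When this arm is weak, the same receptor can drive caspase-8 and cell death. TNF and its target genes are best known from immune and endothelial cells, and many epithelial cancers also express part of the set.

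Because several of these genes are textbook NF-κB targets, the 250 bases before each gene's start site were read from the RefSeq promoter table (GRCh38.p14), which gave 16 windows for 9 of the 10 genes. The windows were searched on both strands for the NF-κB consensus, for the palindrome GGAANTTCC, for the ETS core CCGGAA and for the AP-1 site TGANTCA. Positions are counted back from the RefSeq start site, which is the base after -1. The stretches of TNF, BIRC3 and ICAM1 are shown because these 3 genes had the largest fold changes at 1 µM, and capitals mark matches to the NF-κB consensus or to GGAANTTCC. They lie on the plus strand at chr6:31575315-31575564, chr11:102317234-102317449 and chr19:10270870-10271092. The stretches of TNF and BIRC3 stop before the first annotated untranslated base or gene start. That of ICAM1 stops before the first annotated untranslated base. The gene start of ICAM1 in the deposited table is at -285, so its whole stretch lies within the deposited bounds of the gene.
TNF: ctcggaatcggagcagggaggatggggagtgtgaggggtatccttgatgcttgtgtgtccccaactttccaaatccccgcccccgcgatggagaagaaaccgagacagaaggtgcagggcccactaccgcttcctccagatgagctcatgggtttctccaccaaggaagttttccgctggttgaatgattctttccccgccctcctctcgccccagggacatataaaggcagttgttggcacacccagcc
BIRC3: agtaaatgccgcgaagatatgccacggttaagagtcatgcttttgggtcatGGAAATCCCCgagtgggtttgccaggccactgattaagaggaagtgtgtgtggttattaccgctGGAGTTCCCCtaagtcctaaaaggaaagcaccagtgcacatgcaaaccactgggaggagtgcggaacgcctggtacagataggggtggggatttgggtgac
ICAM1: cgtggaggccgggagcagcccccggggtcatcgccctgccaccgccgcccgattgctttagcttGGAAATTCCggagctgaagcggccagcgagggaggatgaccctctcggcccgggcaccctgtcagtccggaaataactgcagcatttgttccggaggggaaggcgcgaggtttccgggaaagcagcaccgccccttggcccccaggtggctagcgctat

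BIRC3 held 2 matches to the NF-κB consensus, GGAAATCCCC at -199 to -190 and GGAGTTCCCC at -135 to -126. In ICAM1 the palindrome GGAAATTCC lay at -186 to -178, where it overlapped the first of 4 ETS cores, at -181 to -176. No match was found in these letters upstream of TNF or TNFAIP2. TNIP1 held GGGACTTTCC at -42 to -33 of its second window, within an annotated exon of other TNIP1 transcripts (GENCODE release 44), and CFLAR held GGGGAATTCC at -97 to -88 of its first window, within an annotated exon of other CFLAR transcripts. The NF-κB consensus was thus found for 3 of 9 genes, while 6.28% of the 27305 genes in the promoter table and 5.21% of its 35116 windows held it. The 9 genes had 16 windows, more per gene than in the promoter table, so the shares are not like for like. Several of these genes are also textbook NF-κB targets. The palindrome was found for 1 of 9 genes (0.996% of all genes), the ETS core for 3 of 9, ICAM1, TNIP1 and BIRC2 (17.2% of all genes), and the AP-1 site for 1 of 9, in the third window of CFLAR (8.06% of all genes). A match is a description of the letters and not a measured binding site. Whether the matches relate to the changes at 1 µM was not tested.

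All 9 libraries were of similar depth, with totals of 16903251 to 18238884 counts. At this depth a gene with a count of 0 may have up to 3 counts, which is 0.164 to 0.177 CPM (the count scaled by library size). That limit is for counting error alone. Replicates were distinct libraries, since chi-square over its degrees of freedom was 3.20 to 10.7 for the 9 pairs within groups. The labelled cell type was checked against its markers. The thyroid factors PAX8 (2742 to 3660 counts) and HHEX (231 to 320 counts) were present, whereas TG, TSHR and SLC5A5 had at most 4, 2 and 1 counts. Of the epithelial list, the keratins KRT8 (22002 to 24344 counts) and KRT18 (7028 to 8131 counts) carried the sum, whereas EPCAM had 89 to 126 counts, KRT19 66 to 104 counts and CDH1, which encodes E-cadherin, 0 to 5 counts. Of the mesenchymal list, VIM (39355 to 46284 counts) and COL1A1 (5579 to 9593 counts) carried the sum. PDGFRB had 595 to 1012 counts and LUM 142 to 238 counts, whereas COL1A2, COL3A1 and DCN had at most 10, 6 and 8 counts. Summed levels ranged from 178 to 221 CPM for the thyroid list, 1686 to 1848 CPM for the epithelial list and 2787 to 2984 CPM for the mesenchymal list. The sums were 4.44 to 6.52 CPM for endothelial cells, 0 to 0.237 CPM for T cells, 0.167 to 1.12 CPM for B cells and 0.466 to 1.22 CPM for parafollicular C cells.

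All 10 genes were expressed in every sample, over a wide range. On the FPKM scale, which divides by gene length and can be compared between genes, the order of the levels in DMSO ran from TNFAIP2 at 46.7 ± 5.61 FPKM (mean ± SD, n = 3) to TRAF1 at 0.527 ± 0.0607 FPKM. TNIP1 followed TNFAIP2 at 39.7 ± 2.23 FPKM, and the ranges of these 2 genes overlapped. Each of the other neighbours in the DMSO order had ranges that lay apart. CD40 stood at 23.2 ± 1.45 FPKM, ICAM1 at 15.6 ± 0.521 FPKM, TRAF2 at 13.7 ± 1.00 FPKM and BIRC2 at 10.2 ± 1.46 FPKM. TNF itself, a gene often thought of as an immune cell product, had a level of 6.57 ± 0.564 FPKM in these cancer cells. CFLAR had 4.04 ± 0.315 FPKM and BIRC3 2.55 ± 0.358 FPKM. The FPKM of CFLAR divides by a deposited exon length of 22529 bases, the longest of the 10 genes.

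At 0.3 µM the order of the levels was the same as in DMSO, and no neighbours overlapped. At 1 µM ICAM1 moved above CD40, with 25.0 ± 1.97 FPKM against 22.7 ± 0.466 FPKM, although the ranges of these 2 genes overlapped. The ranges of BIRC2 (12.1 ± 0.780 FPKM) and TNF (10.9 ± 0.921 FPKM) also overlapped at 1 µM, as did those of CFLAR (3.88 ± 0.159 FPKM) and BIRC3 (3.64 ± 0.360 FPKM).

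**Figure D1:**
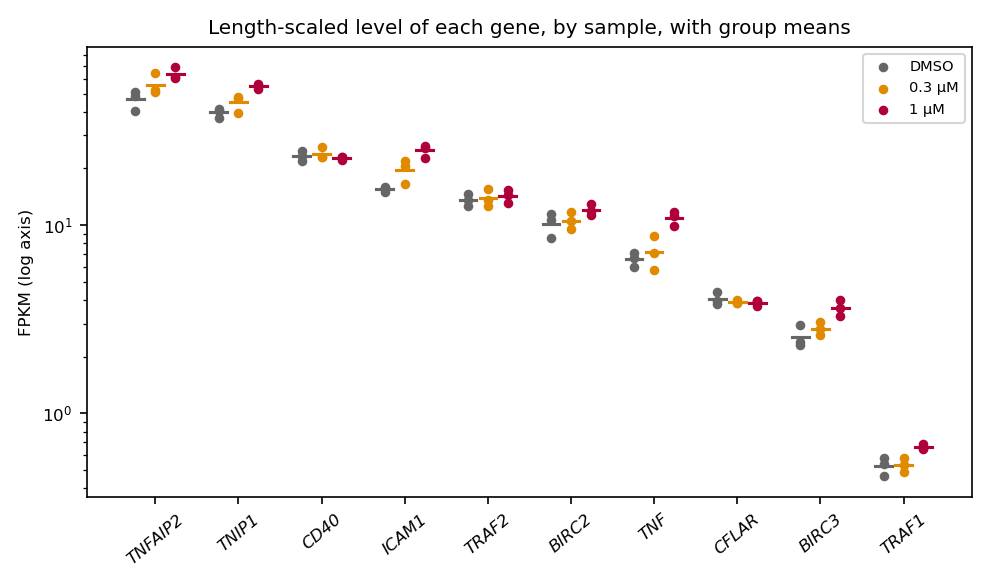
Level of each of the 10 genes in FPKM (log axis) in every sample, with a short bar at the mean of each group of 3 samples (grey, DMSO; orange, 0.3 µM; red, 1 µM). TNFAIP2 is the highest and TRAF1 the lowest in each group, and ICAM1 lies below CD40 in DMSO (15.6 against 23.2 FPKM) but not at 1 µM (25.0 against 22.7 FPKM).

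To see how the treatment moved these genes, each dose was compared with DMSO. At 1 µM, 5 of the 10 genes were called at an adjusted p under 0.05 by edgeR's quasi-likelihood test, and all 5 were higher than in DMSO: the ligand TNF, the ubiquitin ligase BIRC3, the feedback gene TNIP1, the TNF-induced gene TNFAIP2 and the adhesion gene ICAM1. Of all 15617 genes tested in this comparison, 7.67% were called higher, 9.95% lower and 17.6% in either direction. TNF and ICAM1 also passed a change of 1.5-fold (2 of 10 genes, against 1.37% of all genes tested, higher). All 3 samples at 1 µM lay above all 3 DMSO samples for 6 of the 10 genes, the 5 called genes and TRAF1, and 19.0% of all genes tested were apart in this direction. The median log2 fold change was 0.37 over the 10 genes and -0.01 over all genes tested. In bulk RNA, a change in the number of expressing cells and a change in RNA per cell cannot be told apart.

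**Figure D2:**
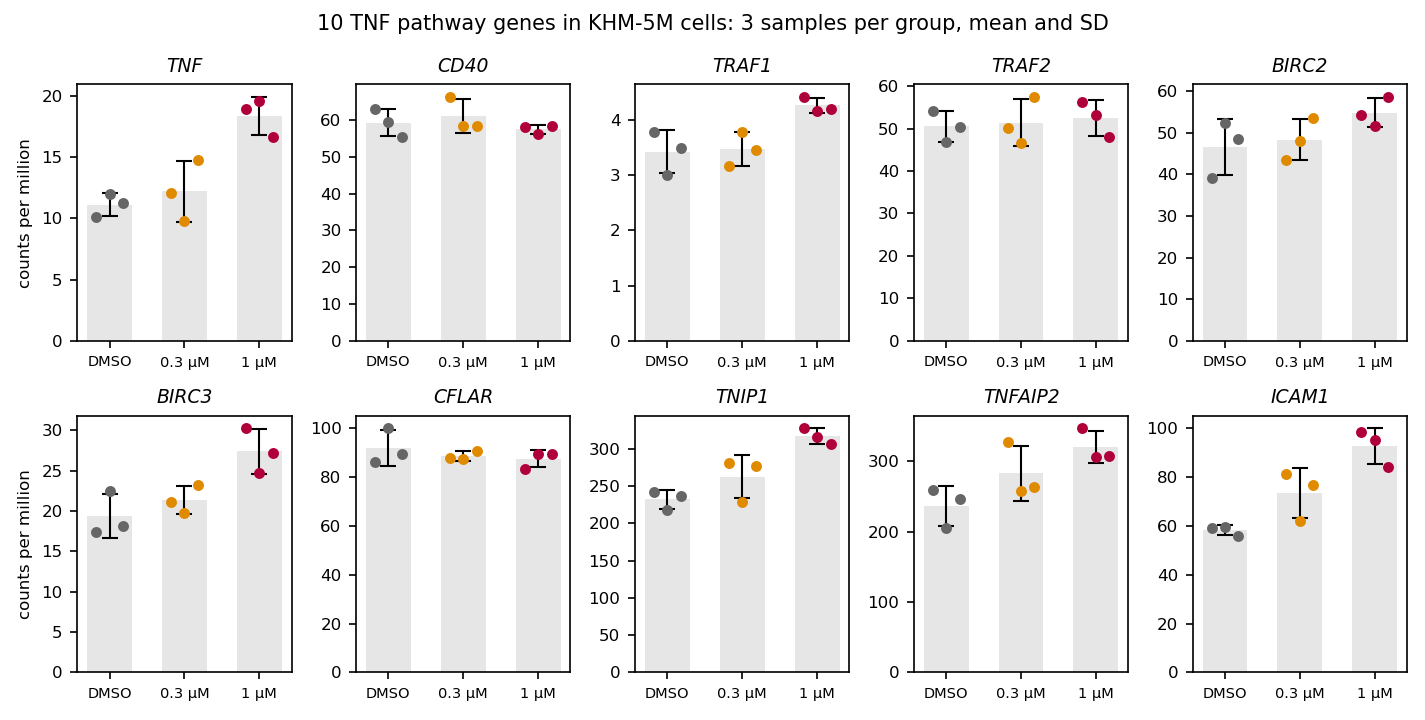
Level in CPM of the 10 genes (scaled by TMM over all 9 samples), with a point for each sample, a bar at the mean and an error bar of 1 SD for each group of 3. For TNF, TRAF1, BIRC3, TNIP1, TNFAIP2 and ICAM1 every sample at 1 µM lies above every DMSO sample, and the 3 groups overlap for CFLAR and TRAF2.

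The ligand had the largest fold change of the 10 genes, but its interval overlapped that of ICAM1 and the difference was not tested. Without DMSO replicate 1 the log2 fold change was 0.66 for TNF and 0.68 for ICAM1. TNF (ENSG00000232810, chromosome 6, 31575567 to 31578336) had 173, 215 and 191 counts in the 3 DMSO samples, 213, 176 and 256 counts at 0.3 µM and 346, 339 and 281 counts at 1 µM. The 1 µM samples were all above those of DMSO and of 0.3 µM, whereas the 0.3 µM and DMSO samples overlapped. Against DMSO, TNF rose 1.64-fold at 1 µM (95% confidence interval 1.40 to 1.93), a log2 fold change of 0.72 (standard error 0.11, adjusted p = 0.000601, edgeR). This fold change was at the 98.1 percentile of all genes tested. Macrophage and monocyte markers, which could mark another source of TNF, were at the limit of detection for most of the list: 3 of its 5 genes had at most 3 counts in all 9 samples, with FCGR3A at 0 and CD68 and LYZ at 0 to 2 counts, and PTPRC, which all leukocytes carry, had at most 1 count. The summed level of the list was 1.00 to 2.39 CPM in DMSO, 1.96 to 2.11 CPM at 0.3 µM and 3.08 to 3.55 CPM at 1 µM. CD14 (8 to 21 counts in DMSO, 8 to 21 at 0.3 µM and 30 to 37 at 1 µM) and CSF1R (10 to 19, 16 to 26 and 18 to 27 counts) made up most of that sum. The part of these markers in the change of TNF was not tested.

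CD40, a receptor of the TNF family that B cells and many carcinomas carry, did not pass the test at either dose. CD40 (ENSG00000101017, chromosome 20, 46118272 to 46129863) had 1080, 1067 and 939 counts in DMSO, 1174, 1050 and 1012 counts at 0.3 µM and 1066, 970 and 984 counts at 1 µM. Its log2 fold change at 1 µM against DMSO was -0.05, with a 95% confidence interval of -0.20 to 0.10 (adjusted p = 0.657, edgeR). The samples at 1 µM and in DMSO overlapped.

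The adaptors TRAF1 and TRAF2 bring the ubiquitin ligases to the receptors. TRAF1 (ENSG00000056558, chromosome 9, 120902393 to 120929173), itself an NF-κB target, was the lowest gene, with 65, 54 and 59 counts in DMSO, 56, 68 and 60 at 0.3 µM and 81, 72 and 71 at 1 µM. All 3 samples at 1 µM were above those of the other groups, but the log2 fold change of 0.31 (95% confidence interval -0.08 to 0.70) did not pass the test (adjusted p = 0.270, edgeR). TRAF2 (ENSG00000127191, chromosome 9, 136881912 to 136926607), which is expressed without a stimulus in most cells, had 931, 842 and 854 counts in DMSO, 886, 839 and 997 at 0.3 µM and 1031, 921 and 811 at 1 µM. The 3 groups of TRAF2 overlapped, with a log2 fold change of 0.05 at 1 µM (95% confidence interval -0.12 to 0.22, adjusted p = 0.719, edgeR).

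The ubiquitin ligases BIRC2 and BIRC3, also called cIAP1 and cIAP2, are neighbours on chromosome 11, 7807 bases apart. BIRC3 (ENSG00000023445, 102317450 to 102339403) had 299, 404 and 308 counts in DMSO, 375, 357 and 402 at 0.3 µM and 555, 429 and 459 at 1 µM. Every 1 µM sample was above every DMSO sample, and the DMSO and 0.3 µM samples overlapped. BIRC3 rose 1.41-fold at 1 µM (95% confidence interval 1.20 to 1.65), or 0.49 on the log2 scale (standard error 0.11, adjusted p = 0.00678, edgeR). BIRC2 (ENSG00000110330, 102347211 to 102378670) had 672, 937 and 820 counts in DMSO, 770, 865 and 927 at 0.3 µM and 995, 892 and 990 at 1 µM. The groups of BIRC2 overlapped, because DMSO replicate 2 was above 1 µM replicate 2. Its log2 fold change of 0.23 (standard error 0.09) did not pass the test (adjusted p = 0.111, edgeR), but it did without DMSO replicate 2 (0.32, adjusted p = 0.0161) and with no filter on low counts (0.25, adjusted p = 0.0221). Without DMSO replicate 1 the value was 0.12 (adjusted p = 0.338). The difference in fold change between BIRC2 and BIRC3 was not tested.

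CFLAR (ENSG00000003402, chromosome 2, 201116104 to 201176687) encodes c-FLIP, which blocks caspase-8 at the receptors. Its first promoter window held the NF-κB match given above. CFLAR had 1477, 1796 and 1519 counts in DMSO, 1553, 1576 and 1575 at 0.3 µM and 1531, 1549 and 1513 at 1 µM. The groups overlapped, with DMSO replicate 2 the highest sample. The log2 fold change at 1 µM was -0.08 (95% confidence interval -0.22 to 0.07, adjusted p = 0.472, edgeR). CFLAR-AS1, an antisense gene within CFLAR, had 12 to 36 counts, and strand use in counting is not given in the sources used here.

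The feedback gene TNIP1 (ENSG00000145901, chromosome 5, 151029945 to 151093577) encodes ABIN-1, a ubiquitin-binding partner of the deubiquitinase A20 that restrains NF-κB. TNIP1 had 4160, 3908 and 3998 counts in DMSO, 4987, 4123 and 4792 at 0.3 µM and 6003, 5469 and 5180 at 1 µM. Every 1 µM sample was above every sample of the other groups. TNIP1 rose 1.36-fold at 1 µM (95% confidence interval 1.25 to 1.48, log2 fold change 0.44, standard error 0.06, adjusted p = 0.000213, edgeR). TNFAIP2 (ENSG00000185215, chromosome 14, 103123442 to 103137439) was first found as a gene that TNF induces, and its protein takes part in forming thin membrane tubes between cells. It had 4459, 3688 and 4167 counts in DMSO, 5810, 4646 and 4570 at 0.3 µM and 6364, 5297 and 5203 at 1 µM. The 1 µM samples were above those of DMSO, while 0.3 µM replicate 1 lay among the 1 µM samples. TNFAIP2 rose 1.35-fold at 1 µM (95% confidence interval 1.19 to 1.52, log2 fold change 0.43, standard error 0.08, adjusted p = 0.00250, edgeR).

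ICAM1 (ENSG00000090339, chromosome 19, 10270835 to 10286615) encodes the surface protein to which leukocyte integrins bind. The stretch before its RefSeq start site, which lies within these bounds, held the palindrome shown above. ICAM1 had 1016, 1072 and 948 counts in DMSO, 1443, 1115 and 1332 at 0.3 µM and 1804, 1648 and 1425 at 1 µM. It was the only one of the 10 genes whose 0.3 µM samples, as CPM, all lay above the DMSO samples and whose 1 µM samples all lay above both. ICAM1 rose 1.58-fold at 1 µM against DMSO (95% confidence interval 1.43 to 1.76), or 0.66 on the log2 scale (standard error 0.07, adjusted p = 4.06e-05, edgeR), the lowest adjusted p of the 10 genes.

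**Figure D3:**
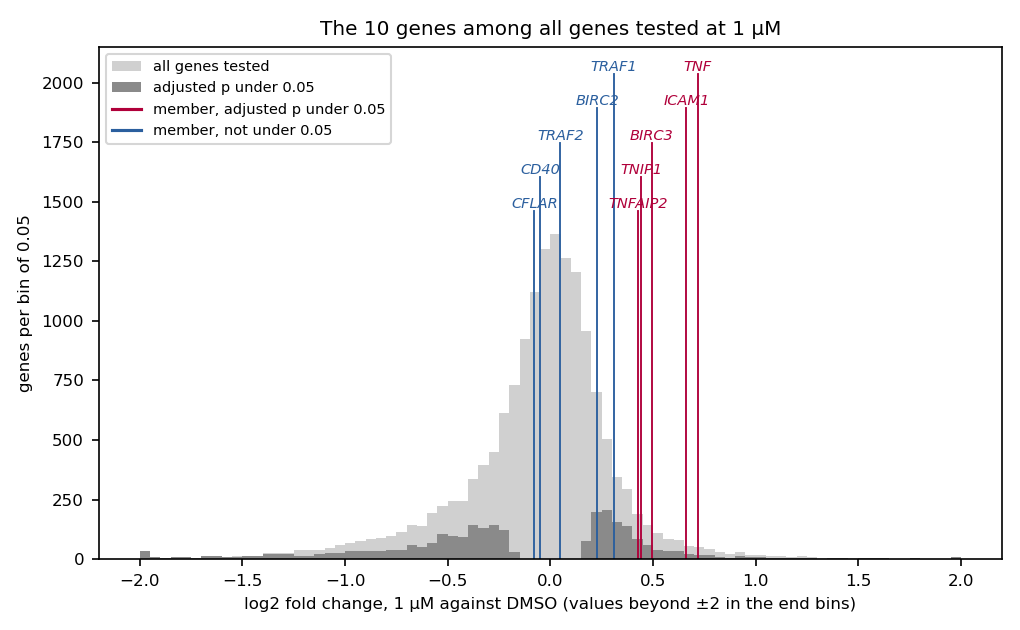
Number of genes per bin of log2 fold change at 1 µM against DMSO for all 15617 genes tested (light grey) and for those with an adjusted p under 0.05 (dark grey), with a line at each of the 10 genes (red, adjusted p under 0.05; blue, not). The 5 red lines lie between 0.43 (TNFAIP2) and 0.72 (TNF), and the 5 blue lines between -0.08 (CFLAR) and 0.31 (TRAF1).

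At 0.3 µM none of the 10 genes was called (0 of 10, where 0% of the 15762 genes tested were called by edgeR). The lowest adjusted p of the 10 genes was 0.995. Before adjustment 594 genes had a p under 0.05 (3.77%, and 1.64% higher), and DESeq2 called 1 gene and none of the 10. At that unadjusted threshold 3 of the 10 genes were higher at 0.3 µM. The log2 fold change of ICAM1 was 0.33 (standard error 0.09, unadjusted p = 0.00285, edgeR), that of TNFAIP2 0.26 (standard error 0.10, unadjusted p = 0.0173, edgeR) and that of TNIP1 0.18 (standard error 0.08, unadjusted p = 0.0436, edgeR), and none of them held after adjustment over all genes. With a sample left out, 1 to 3 of the 10 genes passed the unadjusted threshold, 1 without 0.3 µM replicate 1. The log2 fold change then ran from 0.25 to 0.44 for ICAM1, 0.14 to 0.33 for TNFAIP2 and 0.12 to 0.27 for TNIP1. The number of all genes at that threshold ran from 429 (without DMSO replicate 2) to 1068 (without DMSO replicate 1). ICAM1 was the single gene of the 10 whose 3 treated samples lay above all DMSO samples, a separation seen in 3.83% of all genes tested. For TNF the interval of the log2 fold change at 0.3 µM ran from -0.18 to 0.44. The median log2 fold change at 0.3 µM was 0.09 over the 10 genes and 0.00 over all genes tested.

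The 2 doses were then compared with each other, in a test that uses no DMSO sample. Of the 10 genes, 4 were called higher at 1 µM than at 0.3 µM: TNF, BIRC3, ICAM1 and TNIP1 (5.85% of the 15583 genes tested were called higher and 12.6% in either direction). TNF had a log2 difference of 0.60 (standard error 0.13, adjusted p = 0.00756, edgeR) and was the only one past 1.5-fold, where 0.892% of all genes tested stood. With each of the 6 samples left out in turn, the adjusted p of TNF stayed under 0.05 and its log2 difference ran from 0.46 to 0.75. It was below 1.5-fold without 0.3 µM replicate 2 (0.46), 1 µM replicate 1 (0.58) or 1 µM replicate 2 (0.55). The other 3 genes missed the threshold in some of these fits, while their differences stayed above 0. BIRC3 (0.36, standard error 0.10, adjusted p = 0.0240, edgeR) ran from 0.29 to 0.44 and missed it without 0.3 µM replicate 1 (adjusted p = 0.0567) or 2 (0.0987), or 1 µM replicate 1 (0.124) or 3 (0.0713). ICAM1 (0.34, standard error 0.09, adjusted p = 0.0193, edgeR) ran from 0.24 to 0.43 and missed it without 0.3 µM replicate 2 (adjusted p = 0.0945), 1 µM replicate 1 (0.0879) or 1 µM replicate 2 (0.0682). TNIP1 (0.28, standard error 0.07, adjusted p = 0.0165, edgeR) ran from 0.19 to 0.33 and missed it without 0.3 µM replicate 2 (adjusted p = 0.0803) or 1 µM replicate 1 (0.0658). Without 0.3 µM replicate 2 or without 1 µM replicate 1, 1 of the 10 genes remained called.

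TNFAIP2 did not pass the test between the doses, with a log2 difference of 0.18 (95% confidence interval 0.02 to 0.35, adjusted p = 0.143, edgeR). It passed without 0.3 µM replicate 1 (0.30, adjusted p = 0.00980), the highest of the 0.3 µM samples, and with no filter on low counts (0.19, adjusted p = 0.0345). With single samples left out, the difference of TNFAIP2 ran from 0.12 (without 0.3 µM replicate 2, adjusted p = 0.429) to 0.30. BIRC2 had a difference of 0.19 (adjusted p = 0.157, edgeR) and passed without 0.3 µM replicate 3 (0.26, adjusted p = 0.0415), while without 0.3 µM replicate 1 it was 0.12 (adjusted p = 0.424). TRAF1 had a difference of 0.30 (adjusted p = 0.318, edgeR) with samples apart, as in 15.5% of all genes tested in that direction. CD40 was the only one of the 10 genes with all 3 samples lower, as CPM, at 1 µM than at 0.3 µM (16.0% of all genes tested), by a narrow gap from 58.2 to 58.3 CPM between the nearest samples, with a difference of -0.08 and an adjusted p of 0.531 (edgeR). For TRAF2 and CFLAR the intervals were -0.14 to 0.22 and -0.15 to 0.12.

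**Figure D4:**
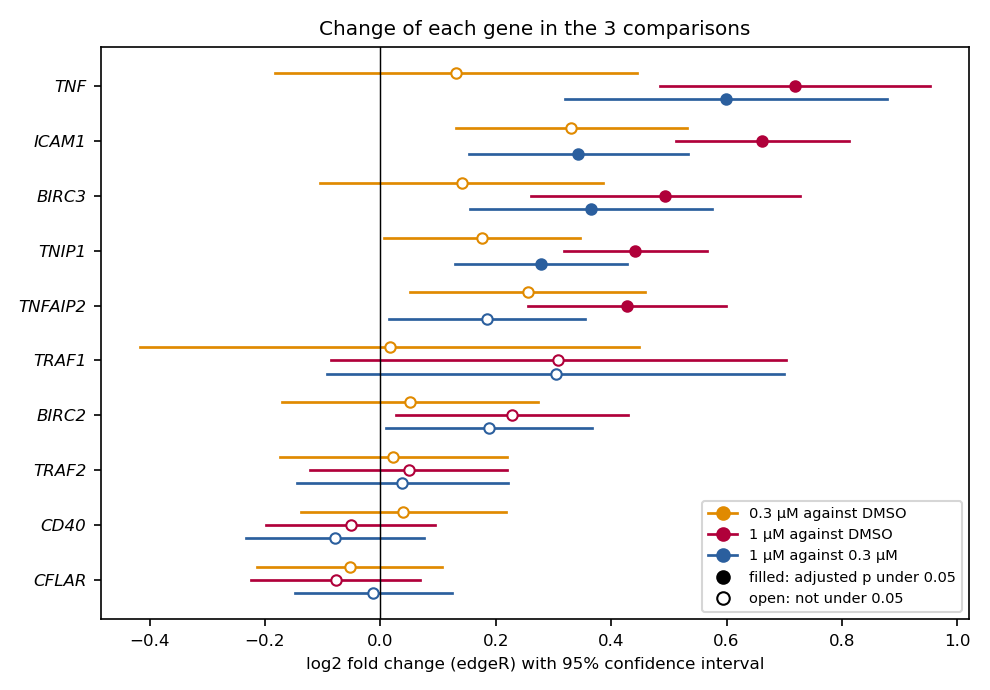
Log2 fold change (edgeR) of the 10 genes with its 95% confidence interval for 0.3 µM against DMSO (orange), 1 µM against DMSO (red) and 1 µM against 0.3 µM (blue), filled where the adjusted p is under 0.05. The filled points are 5 for 1 µM against DMSO and 4 for 1 µM against 0.3 µM, all above 0, and no orange point is filled. The first 2 comparisons share the DMSO samples.

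The other genes of the pathway were taken from 7 lists sorted by role, which were written with earlier results of these data known. The lists held 116 genes in all, of which 98 were tested at 1 µM. Of these 98 genes, 36 were higher and 5 lower than in DMSO, beside 7.67% and 9.95% of all genes tested, and their median log2 fold change was 0.13 against -0.01. None was called at 0.3 µM by edgeR (0 of 97) or by DESeq2. At an unadjusted p under 0.05 there were 7, beside 3.77% of all genes tested, and between 2 (without DMSO replicate 3) and 14 (without 0.3 µM replicate 2) with a sample left out. Without DMSO replicate 3 the number called at 1 µM fell to 25, and without 1 µM replicate 2 to 26.

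Among other ligands of the TNF family, 1 of 7 tested was higher and 1 lower at 1 µM, where 7.67% and 9.95% of all genes tested were. CD70, a ligand that activates T cells, went from 528 to 537 counts to 632 to 669 counts (log2 fold change 0.26, adjusted p = 0.0340, edgeR), and LTB, a partner of lymphotoxin alpha, went from 38 to 45 counts to 19 to 26 counts (-0.82, adjusted p = 0.0494, edgeR). The remaining ligands included genes at or near 0, with FASLG at 0 in all 9 samples and LTA and CD40LG at 0 to 2 counts. CD40 was thus present in these cells while its own ligand was not detectable at this depth. These 3 ligands and the 2 TNF receptors below were singled out after their values were seen.

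Of the 15 receptors tested, 7 were higher and 2 lower at 1 µM, beside 7.67% and 9.95% of all genes tested. TNFRSF9, a T cell costimulatory receptor also known as 4-1BB, went from 211 to 241 counts in DMSO to 419 to 530 counts at 1 µM (log2 fold change 0.98, standard error 0.10, adjusted p = 2.96e-05, edgeR). NGFR, the low-affinity neurotrophin receptor, rose from 21 to 53 counts to 66 to 75 counts (0.93), and TNFRSF21, a death domain receptor, from 221 to 321 counts to 354 to 422 counts (0.50). TNFRSF25, another death domain receptor, fell from 218 to 241 counts to 143 to 176 counts (-0.53), and TNFRSF14, which binds the ligand LIGHT, from 161 to 170 counts to 105 to 132 counts (-0.50). The receptors of TNF itself did not pass the test at 1 µM, with log2 fold changes of 0.06 for TNFRSF1A (95% confidence interval -0.07 to 0.20, adjusted p = 0.546, edgeR) and 0.01 for TNFRSF1B (-0.21 to 0.23, adjusted p = 0.955, edgeR). In DMSO the FPKM level was 37.8 ± 2.24 for TNFRSF1A and 3.74 ± 0.107 for TNFRSF1B (n = 3).

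The receptor complex, which holds the adaptors, ubiquitin ligases and kinases beside TRAF2 and BIRC2, had 7 of 23 tested genes higher and 1 lower. For this list and the death complex below, the shares of all genes tested were 7.67% higher and 9.95% lower. SPATA2, which links the deubiquitinase CYLD to the complex, had a log2 fold change of 0.49 (344 to 442 counts in DMSO, 552 to 560 at 1 µM), CHUK, a kinase of the IκB kinase complex, of 0.36, and TAB3, a subunit that binds ubiquitin chains for the kinase TAK1, of 0.35. TRAF5, a relative of TRAF2, fell (-0.41, adjusted p = 0.00771, edgeR). Of the 13 tested genes of the death complex, 3 were higher and none lower, among them CASP8, the caspase that CFLAR blocks (0.28), and MLKL, the effector of necroptosis (0.29, adjusted p = 0.0480, edgeR).

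Feedback genes and NF-κB subunits had the most calls, with 12 of 15 higher and none lower at 1 µM and a median log2 fold change of 0.47. Among all genes tested 7.67% were called higher and 9.95% lower. NFKBIE, an inhibitor of NF-κB, went from 263 to 362 counts to 556 to 627 counts (log2 fold change 0.90, standard error 0.11, adjusted p = 0.000161, edgeR). ZC3H12A, an RNase that degrades inflammatory mRNAs, went from 568 to 641 counts to 939 to 1162 counts (0.76), and TNFAIP3, which encodes the A20 that TNIP1 partners, from 417 to 561 counts to 636 to 940 counts (0.67). All 3 samples of these genes at 1 µM were above those of DMSO, but the genes were picked for their large called change in these samples. Of all genes tested, 19.0% were apart in this direction.

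The list of survival targets had 5 of 10 genes higher and none lower, beside 7.67% and 9.95% of all genes tested. Not all of the 5 genes are known for survival. BCL2 (-0.01), BCL2L1 (0.03), MCL1 (0.13) and BCL2A1 (-0.15), of the BCL2 family that guards mitochondria, and GADD45B (-0.18), a stress gene, did not pass the test. Of those that passed, PLAU (0.50, adjusted p = 0.000129, edgeR) and PLAUR (0.21, adjusted p = 0.0216, edgeR) encode urokinase and its receptor, which act in matrix breakdown. These 7 genes were named after their values were seen. IER3, an early gene that affects cell survival, went from 1334 to 1592 counts to 2658 to 2944 counts (log2 fold change 0.93, adjusted p = 9.51e-06, edgeR). SOD2, the mitochondrial superoxide dismutase, rose by 0.66 (adjusted p = 0.00958, edgeR), with 1 µM replicate 1 at 8376 counts and the other 2 samples at 4721 and 4265. TNFAIP6, a secreted hyaluronan-binding protein, had few counts (7 to 16 in DMSO and 17 to 78 at 1 µM, log2 fold change 1.57, adjusted p = 0.04998, edgeR). Its samples differed widely, with 1 µM replicate 1 at 78 counts and the other 2 at 17 and 22, and with 67, 25 and 2 counts at 0.3 µM. Adhesion genes other than ICAM1 showed 1 higher and 1 lower call among 15 tested, near the 7.67% and 9.95% of all genes tested, with a median of 0.02. EZR, which ties ICAM1 and other surface proteins to actin, had a log2 fold change of 0.19 (adjusted p = 0.0268, edgeR), and ICAM5, a relative of ICAM1 known from neurons, fell from 329 to 452 counts to 232 to 276 counts (-0.60, adjusted p = 0.00410, edgeR).

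**Figure D5:**
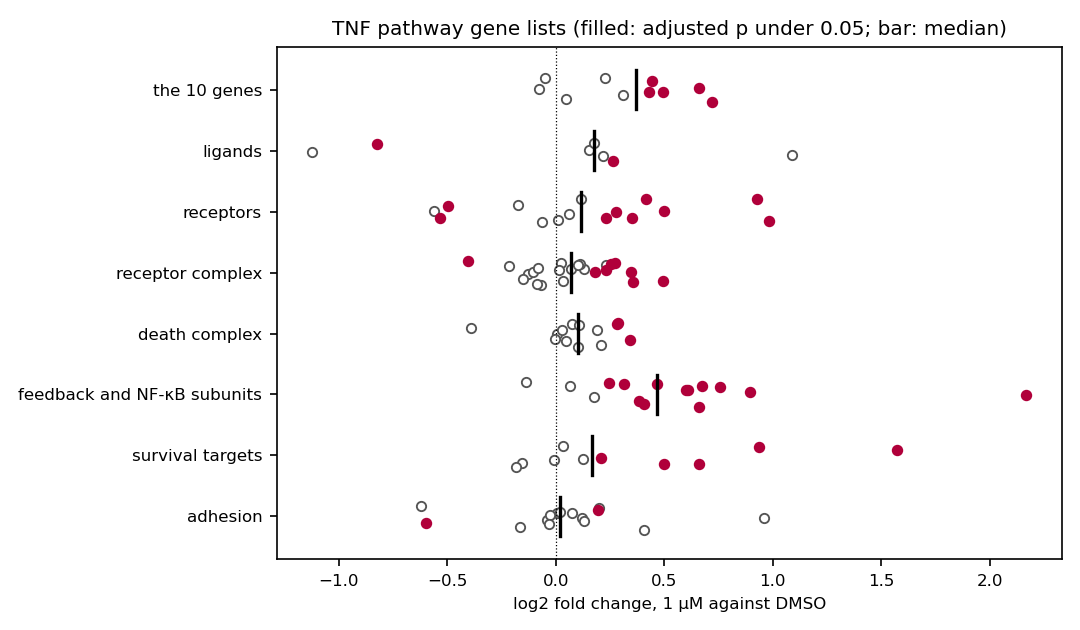
Log2 fold change (edgeR) at 1 µM against DMSO for each tested gene of the 10 genes and of the 7 pathway lists, filled where the adjusted p is under 0.05, with a bar at the median of each row. Feedback genes and NF-κB subunits have 12 of 15 points filled, and the point at 2.17 is TNIP3, with 4 to 42 counts over the 9 samples.

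Finally, the genes whose pattern over the 9 samples was most like that of each called gene were found, as the smallest root mean square difference of log2(CPM + 0.5) relative to the DMSO mean. The samples share the DMSO libraries and these genes were picked for their likeness, so the values are a description. The nearest to TNF were B3GNT2 (0.119), SQSTM1 (0.122) and MAFF (0.122), and the nearest to ICAM1 were CSRNP1 (0.0802), KLHL18 (0.0966) and SQSTM1 (0.104), so that SQSTM1, the autophagy receptor p62, was named for both. NFKBIA (0.0594), which encodes the main IκB, IRF1 (0.0616), an interferon-responsive factor, and TNIP2 (0.0629), a relative of TNIP1, were the nearest to TNIP1. HELZ2 (0.0597), TMEM179B (0.0705) and DNAJC5 (0.0808) were the nearest to TNFAIP2, and ETF1 (0.0855), NAMPT (0.0880) and C21orf91 (0.0953) the nearest to BIRC3. Among the 10 genes, the closest pair with a called gene was TNIP1 and TNFAIP2, with a difference of 0.103 on the log2 scale. Among all genes tested, TNFAIP2 ranked 77 in nearness to TNIP1, and TNIP1 ranked 11 in nearness to TNFAIP2.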

How the data were processed

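RNA-seq of 9 KHM-5M samples was analysed. The authors trimmed reads, aligned them to GRCh38 and counted them per gene. The methods name Hisat2 and HTseq, and the submitters' processing notes name HISAT2 2.0.5, featureCounts 1.5.0-p3 and DESeq2 1.20.0. The labels give 3 samples per group where the methods describe fewer. The authors deposited whole-number counts, not normalized, and FPKM values, which divide by exon length and library size. The table's columns of the authors' means, fold changes and p-values were not used.

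Counts were tested with edgeR 4.0.16 (R 4.3.3; glmQLFit and glmQLFTest) between the groups compared, after filterByExpr at a minimum count of 10 and TMM, with Benjamini-Hochberg adjustment over all genes tested. Called means an adjusted p under 0.05. All 10 genes passed the filter in all 3 comparisons. Standard errors and 95% intervals come from the same fit. An exact permutation test of 3 against 3 samples stops at p = 0.1, so none was run per gene. The scripts were tested on simulated data. Alternatives were DESeq2 1.42.0, RLE factors, no filter beyond 1 count in total, all 9 samples in 1 fit, a block for the replicate number, leaving out each sample, and a 1.5-fold cutoff. The genes, the 7 pathway lists and 8 marker lists were chosen with earlier results of these data known. The genes named are the 10, the 3 of each list and direction with the largest called change at 1 µM and a mean of at least 1 CPM, markers that define a list, and the 3 genes nearest in pattern. Some genes that these rules name are not reported here. Promoter windows are from RefSeq.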

Additional observations from a re-analysis of the deposited data

How the results depend on the processing

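All 5 calls at 1 µM against DMSO held in each of the 11 alternatives that give a value per gene, and 2 genes, TNF and ICAM1, passed with a 1.5-fold cutoff. With each sample left out in turn, 5 to 6 of the 10 genes were called at 1 µM against DMSO, 0 at 0.3 µM, and 1 to 5 at 1 µM against 0.3 µM, where a 1.5-fold cutoff left 1. Over all genes the number called at 1 µM was 1683 to 2977 with a sample left out (lowest without DMSO replicate 3, and also over 1.5 times lower without 1 µM replicate 2, at 1755, or 3, at 1805) and 861 with a 1.5-fold cutoff, against 2752. For the pathway lists it was 25 to 40 and 14, against 41. Between the doses it was 948 to 1884 (lowest without 1 µM replicate 3, and also over 1.5 times lower without 1 µM replicate 1, at 1164, 1 µM replicate 2, at 1118, or 0.3 µM replicate 2, at 1253) and 507, against 1963. At 0.3 µM it was 1 with DESeq2, 30 with no filter on low counts and 0 to 4 with a sample left out, against 0. The causes were not tested.

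Signs turned, with a sample left out, only for differences near 0 that were not called. At 0.3 µM the log2 fold change then ranged from -0.0278 to 0.2689 for TNF, -0.0579 to 0.1427 for BIRC2, -0.0680 to 0.0966 for TRAF1, -0.0636 to 0.0900 for TRAF2, -0.0971 to 0.0137 for CFLAR and -0.0224 to 0.0867 for CD40. Between the doses it ranged from -0.0266 to 0.1202 for TRAF2 and -0.0283 to 0.0210 for CFLAR.

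The labels give the groups the same replicate numbers but do not say whether same-numbered samples belong together. Deviations of same-numbered samples correlated at -0.06 to 0.07 for 1 µM and DMSO, 0.03 to 0.12 for 0.3 µM and DMSO and -0.03 to -0.02 between the doses. Each sample correlated best with its own number in 1, 3 and 0 of 3 samples. With the replicate block, 2120, 1 and 1768 genes were called in these 3 comparisons, with 5, 0 and 4 of the 10 genes and 33 genes of the pathway lists at 1 µM. At 0.3 µM against DMSO the block gave 1004 genes with an unadjusted p under 0.05 (edgeR), against 594 without it. TRAF1 had the fewest counts of the 10 genes, 54 to 81 per sample, and the effect of depth on its call was not tested.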
